A study of Mus musculus with 15 samples.

Results

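The genes of the Fc gamma receptors were followed across 5 sorted murine mononuclear phagocyte (MP) subtypes. They were chosen by symbol and matched to the Ensembl identifiers of the count table, which gave 6 members of the 38924 genes counted: Fcgr1, Fcgr2b, Fcgr3, Fcgr4, Fcer1g and Fcgrt. All 6 passed the filter on low counts, which left 14456 genes. Each subtype was sequenced as 3 libraries, and each library held cells pooled from 5 naïve, untreated female C57BL/6 mice, aged 6 to 8 weeks per the labels and 6 to 10 weeks per the methods. The subtypes were splenic CD8+ DCs (DC1 lineage), splenic CD4+ DCs (DC2 lineage), CD103+ (DC1) and CD11b+ (DC2) DCs of the lung-draining lymph node (LN), and splenic Ly6C+ monocytes. DCs were sorted as CD11c+ MHCII+ cells and monocytes as CD11b+ cells, all from collagenase digests, and different cohorts of mice gave the LNs and the spleens. The LN DCs were gated on high MHCII, which sets migratory DCs apart from resident ones, so organ and migratory state cannot be told apart.

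Fc gamma receptors bind the constant part of IgG, and so let a phagocyte recognise antibody-coated particles and immune complexes. Fcgr1 encodes CD64, the high-affinity receptor, while Fcgr3 and Fcgr4 encode activating receptors of lower affinity. These activating receptors signal through the common gamma chain, encoded by Fcer1g, which carries an immunoreceptor tyrosine-based activation motif (ITAM). Fcgr2b encodes the inhibitory receptor, whose own tail carries an inhibitory motif (ITIM) that recruits phosphatases. Fcgrt encodes the heavy chain of FcRn, which pairs with beta-2-microglobulin, binds IgG in acidic endosomes and protects it from degradation. In DCs these receptors are known for taking up immune complexes and for setting how strongly such complexes activate the cell.

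The activation and inhibitory motifs are shown because they separate the arms compared throughout. Both stretches were read from GENCODE transcripts of mm10, with the tyrosine codons in capitals. The Fcer1g stretch lay on the minus strand of chromosome 1 at chr1:171229889-171230072 and spanned 2 exons, and it covered codons 65 to 79 of 86. The Fcgr2b stretch lay on the minus strand at chr1:170961071-170961088 in 1 exon, at codons 317 to 322 of 340. The same search found the activation motif in the coding sequence of Fcer1g and in none of the other 5 members.
Fcer1g activation motif: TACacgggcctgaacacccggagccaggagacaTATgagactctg
Fcgr2b inhibitory motif: atcaccTACtcacttctc

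Library totals ran from 4531243 to 10233914 counts. Summed markers of DC1 and of Ly6C+ monocytes were highest in the subtypes so labelled. The 7 DC1 markers reached 3748 to 5871 CPM (counts scaled to the library total) in splenic CD8+ DCs against 131 to 160 in splenic CD4+ DCs. In the LN they reached 812 to 1142 CPM in CD103+ and 301 to 452 in CD11b+ DCs, and in monocytes 478.5 to 594. The 7 markers of Ly6C+ monocytes reached 5764 to 6417 CPM in monocytes against at most 835 in any DC library. The 5 DC2 markers did not set the DC2 subtypes apart from monocytes. They summed to 1571 to 2660 CPM in splenic CD4+ DCs, 792 to 880 in LN CD11b+ DCs and 2282 to 2599 in monocytes. Some of these markers were themselves used in the sorts. The 4 migratory DC markers summed to 7152 to 15380 CPM in LN DCs and to 224 to 639 in splenic DCs. In the DC sorts, cells stained for CD64, the product of Fcgr1, were removed together with Gr1+ cells. The level of Fcgr1 in DCs against monocytes was therefore partly set by the gate and is given without a test. The deposited data are of bulk populations, in which fewer cells of a type and less RNA per cell cannot be told apart.

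The 5 members other than Fcgr1 all differed among the 5 subtypes (edgeR quasi-likelihood test over the subtypes, adjusted p between 9.71e-13 for Fcgr3 and 1.53e-05 for Fcgrt), but 73.5% of all genes tested also did. By mean level, the receptors and the gamma chain were highest in monocytes, and all of these except Fcgr1 were lowest in LN CD103+ DCs. Fcgrt had another order and was highest in splenic CD8+ DCs.

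**Figure D1:**
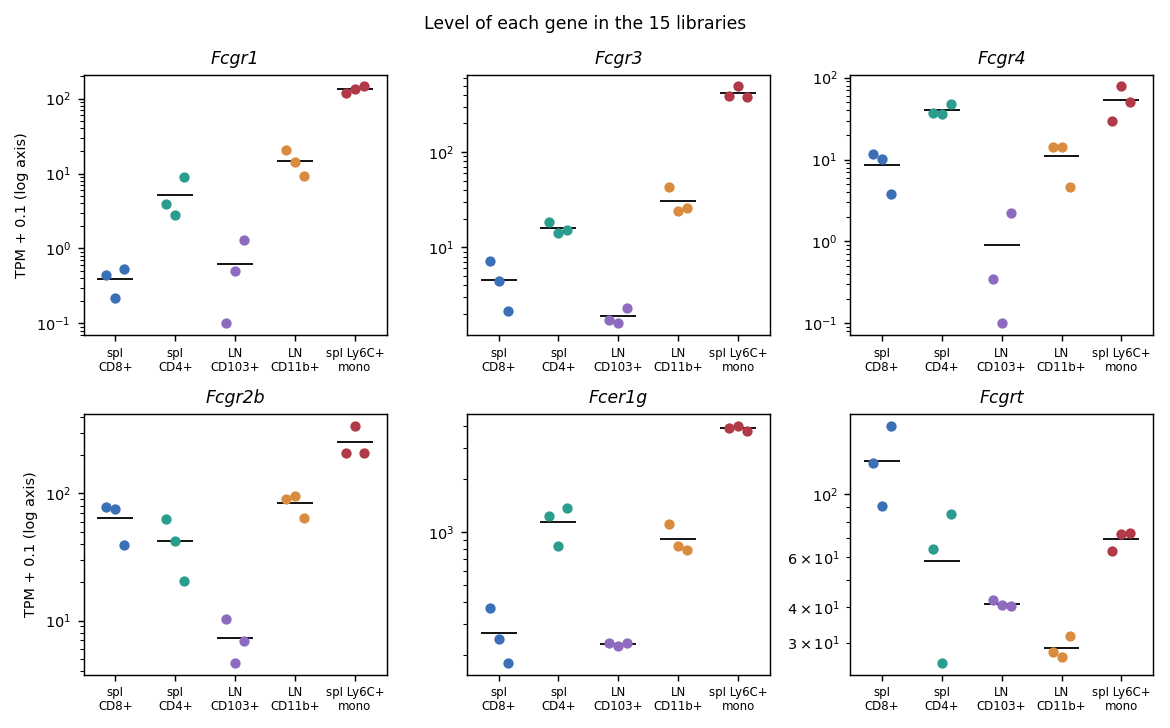
Level of each gene as TPM + 0.1 on a log axis, with 1 point for each of the 15 libraries and a line at the mean of each subtype (n = 3). Monocyte libraries lay above all DC libraries for Fcgr1, Fcgr3, Fcgr2b and Fcer1g, overlapped splenic CD4+ DCs for Fcgr4, and lay below splenic CD8+ DCs for Fcgrt.

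Among the activating receptors, Fcgr3 (chr1:171051174-171064935, minus strand) was graded across all 5 subtypes. Its level was 253, 340 and 255 CPM in the 3 monocyte libraries, 30.9, 18.5 and 17.5 CPM in LN CD11b+ DCs, and 12.5, 11.1 and 9.66 CPM in splenic CD4+ DCs. In splenic CD8+ DCs it was 4.90, 3.24 and 1.49 CPM, and in LN CD103+ DCs 1.26, 1.17 and 1.66 CPM. Thus the groups did not overlap, apart from the lowest splenic CD8+ library, which lay within the range of LN CD103+ DCs. NK cells also express Fcgr3. The 6 NK cell markers summed to 2.53 to 5.11 CPM in monocytes and 9.95 to 15.4 CPM in LN CD103+ DCs. In splenic CD4+ DCs their sum reached 92.8 CPM, mostly from Klrd1, with a mean of 73.8 CPM. There Ncr1 averaged 0.714 CPM and Klrb1c 0.197 CPM, and Eomes, Gzma and Prf1 were at 0. In LN CD11b+ DCs the sum was 28.7 to 36.6 CPM, with Ncr1 at 2.30 and Klrb1c at 3.09 CPM on average. Of the 5 NK cell markers tested, 3 were higher and 1 lower in LN CD11b+ than in splenic CD4+ DCs (19.3% and 13.8% of all genes). Splenic CD8+ DCs had sums of 21.6 to 59.05 CPM. The part of NK cells in the DC levels was not tested. Monocytes exceeded LN CD11b+ DCs by 3.65 on the log2 scale (SE 0.30, adjusted p = 1.12e-08), and each further step down this order also passed the test. The step from LN CD11b+ to splenic CD4+ DCs was 1.02 (SE 0.29, adjusted p = 0.0117), and that from splenic CD4+ to splenic CD8+ DCs 1.79 (SE 0.33, adjusted p = 0.000503). The last step, from splenic CD8+ to LN CD103+ DCs, was 1.24 (SE 0.41, adjusted p = 0.0192). It rested on 78 and 29 reads in all, and was lost without splenic CD8+ replicate 1 (adjusted p = 0.151), LN CD103+ replicate 1 (0.0544) or LN CD103+ replicate 2 (0.0732).

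Fcgr4 (chr1:171018920-171029761, plus strand) did not separate monocytes from DCs in the same way. Its level was 13.97, 39.2 and 24.3 CPM in monocytes and 18.2, 20.97 and 21.6 CPM in splenic CD4+ DCs, so that these groups overlapped. Their difference was 0.36 on the log2 scale (95% interval -0.681 to 1.403, adjusted p = 0.58). Splenic CD8+ DCs had 5.86, 5.40 and 1.95 CPM and LN CD11b+ DCs 7.42, 7.92 and 2.21 CPM, and this pair did not differ beyond its spread (0.46, 95% interval -0.70 to 1.61, adjusted p = 0.542). LN CD103+ DCs held 1, 0 and 7 reads, or at most 1.16 CPM. Splenic CD4+ DCs exceeded splenic CD8+ DCs by 2.20 (95% interval 1.07 to 3.34, adjusted p = 0.00512), and every splenic CD4+ library lay above every other DC library. Macrophages also express Fcgr4. Among the DCs their 11 markers summed to 1537 to 2204 CPM in splenic CD4+, 689 to 1015 in LN CD11b+ and 398 to 558 in splenic CD8+ DCs. In LN CD103+ DCs the sum was 225 to 258 CPM. Monocytes, which overlapped splenic CD4+ DCs in Fcgr4, had 601 to 777 CPM of these markers. No marker of that list was at 0 in any subtype. Nonclassical monocytes are also known for Fcgr4. Their 6 markers summed to 1093 to 1521 CPM in splenic CD4+ DCs, 740 to 767 in splenic CD8+ DCs and 524 to 678 in LN CD11b+ DCs. The sum was 846 to 936 CPM in LN CD103+ DCs, where Fcgr4 was lowest, and 3772 to 4128 in monocytes. Much of it was Nr4a1 in splenic CD4+ DCs (mean 972 CPM) and Eno3 in LN CD103+ DCs (mean 646 CPM). The part of either list in the result was not tested.

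Fcgr1 (chr3:96282909-96293969, minus strand), which lies apart from the cluster on chromosome 1, was at 115, 139 and 147 CPM in monocytes. The gate also bounded the Fcgr1 product in the DC sorts, and its part in differences between DC subtypes was not tested. Within the DCs left after removal of CD64+ cells Fcgr1 was still graded. LN CD11b+ DCs had 21.6, 16.7 and 9.28 CPM and splenic CD4+ DCs 3.87, 3.24 and 8.32 CPM, a difference of 1.65 on the log2 scale (SE 0.41, adjusted p = 0.00456). Both DC1 subtypes were near 0, with 3, 1 and 4 reads in splenic CD8+ DCs and 0, 4 and 8 reads in LN CD103+ DCs, and no difference between them was detectable at this depth (0.75, 95% interval -1.10 to 2.61, adjusted p = 0.517). In each organ the DC2 subtype was above the DC1 subtype, by 3.90 in the spleen (SE 0.63, adjusted p = 0.000153) and by 4.81 in the LN (SE 0.55, adjusted p = 8.65e-06). The summed macrophage markers were also higher in the DC2 than in the DC1 subtype of each organ, with 225 to 258 CPM in LN CD103+ DCs. Between LN CD11b+ and splenic CD4+ DCs 4 of the 11 were higher and 3 lower (median log2 fold change 0.175), although their sum was lower in the LN. Summed markers of Ly6C+ monocytes were 653 to 835 CPM in LN CD11b+ and 529 to 723 CPM in splenic CD4+ DCs, and 6 of these 7 were higher in LN CD11b+ DCs and none lower. The part of either list in these results was not tested.

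The inhibitory receptor gene Fcgr2b (chr1:170960558-170976547, minus strand) was present in every subtype. Monocytes had 301, 522 and 312 CPM and LN CD11b+ DCs 143, 165 and 96.1 CPM. Splenic CD8+ DCs had 120, 124 and 63.1 CPM, while splenic CD4+ DCs were widely spread at 94.6, 74.7 and 28.8 CPM. LN CD103+ DCs stood below all other libraries with 17.4, 7.96 and 11.3 CPM. Monocytes exceeded LN CD11b+ DCs by 1.49 on the log2 scale (SE 0.38, adjusted p = 0.00305). Splenic CD8+ DCs did not differ beyond their spread from LN CD11b+ DCs (-0.40 against them, adjusted p = 0.418) or from splenic CD4+ DCs (0.63, 95% interval -0.15 to 1.41, adjusted p = 0.226). Splenic CD4+ DCs exceeded LN CD103+ DCs by 2.44 (SE 0.41, adjusted p = 7.12e-05). B cells are known for high Fcgr2b, and the LN CD103+ library with the most Fcgr2b, replicate 1, also had the highest summed B cell markers, at 244 CPM over 6 genes against 16.4 and 28.2 in the other two. The part of B cells in these levels was not tested.

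The gamma chain gene Fcer1g (chr1:171229572-171234365, minus strand) was the most abundant member per length, with 3891 ± 129 TPM in monocytes (SD, n = 3). Its level was 1169, 1281 and 1170 CPM in monocytes, 382, 305 and 404 CPM in splenic CD4+ DCs and 365, 301 and 248 CPM in LN CD11b+ DCs. The DC1 subtypes were lower, with 120, 84.7 and 60.6 CPM in splenic CD8+ DCs and 83.2, 81.6 and 80.9 CPM in LN CD103+ DCs. The levels therefore fell into 3 tiers, monocytes, DC2 and DC1, which did not overlap. Monocytes exceeded splenic CD4+ DCs by 1.73 on the log2 scale (SE 0.22, adjusted p = 4.82e-06). Within a DC lineage the organs did not differ beyond their spread: the LN minus spleen difference was -0.11 in DC1 (95% interval -0.58 to 0.36, adjusted p = 0.717) and -0.25 in DC2 (95% interval -0.71 to 0.21, adjusted p = 0.411).

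Fcgrt (chr7:45092993-45103822, minus strand) was the member that did not follow the receptors. Splenic CD8+ DCs had 89.8, 68.0 and 127 CPM, above the 12 other libraries. Monocytes had 41.1, 50.2 and 49.2 CPM, splenic CD4+ DCs 43.2, 20.3 and 54.4, LN CD103+ DCs 32.7, 32.0 and 30.3, and LN CD11b+ DCs 19.9, 20.8 and 21.4. Splenic CD8+ DCs exceeded monocytes by 1.02 on the log2 scale (SE 0.28, adjusted p = 0.00617), and the further steps down the order were not called (adjusted p = 0.478, 0.381 and 0.184). Splenic CD4+ replicate 2 stood at less than the other libraries of its group. Without it LN CD103+ DCs were lower than splenic CD4+ DCs by 0.62 (adjusted p = 0.0361), and monocytes were higher than LN CD103+ DCs by 0.57 (adjusted p = 0.028 in place of 0.0966). B2m, the partner of Fcgrt, moved the other way between the DC1 subtypes: 2874 ± 291 CPM in the spleen and 11730 ± 1638 CPM in the LN (SD, n = 3). The ratio of B2m to Fcgrt in TPM was 673 to 862 in LN CD103+ DCs and 40.6 to 89.5 in splenic CD8+ DCs. B2m was also higher in LN CD11b+ than in splenic CD4+ DCs, by 0.92 on the log2 scale (SE 0.26, adjusted p = 0.00938). The ratio was 479 to 949 in LN CD11b+ DCs and 98.5 to 477 in splenic CD4+ DCs.

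The question of how LN migratory DCs differ from splenic resident DCs of the same lineage was asked in each lineage. In DC1, 4 of 6 members differed, all lower in LN CD103+ than in splenic CD8+ DCs, whereas 45.6% of all genes were called and 21.8% of all genes were lower. Fcgr4 fell by 3.47 on the log2 scale (SE 0.77, adjusted p = 0.00118), Fcgr2b by 3.07 (SE 0.41, adjusted p = 6.89e-06), Fcgrt by 1.58 (SE 0.28, adjusted p = 0.000153), and Fcgr3 by the 1.24 given above. In DC2, 5 of 6 members differed between LN CD11b+ and splenic CD4+ DCs, against 33.1% of all genes. Fcgr1, Fcgr3 and Fcgr2b rose (19.3% of all genes did), whereas Fcgr4 and Fcgrt fell (13.8% of all genes did). Fcgr2b was higher by 1.03 (SE 0.38, adjusted p = 0.0418), Fcgr4 lower by 1.75 (log2 fold change -1.75, SE 0.53, adjusted p = 0.016) and Fcgrt lower by 0.93 (log2 fold change -0.93, SE 0.29, adjusted p = 0.0178).

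These DC2 calls were close to the threshold. Leaving out a single library took the count of 5 to as low as 2, without LN CD11b+ replicate 1, where Fcgr2b (adjusted p = 0.0965), Fcgr3 (0.101) and Fcgrt (0.058) were lost. Fcgr2b was also lost without LN CD11b+ replicate 2 (0.136), splenic CD4+ replicate 2 (0.0636) or 3 (0.145) or LN CD103+ replicate 3 (0.0503), Fcgr4 without LN CD11b+ replicate 3 (0.0605), and Fcgrt without splenic CD4+ replicate 1 (0.0533) or 3 (0.107).

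The difference between the lineages was tested directly, as the LN minus spleen change in DC1 minus that in DC2. It passed for 2 of 6 members, against 11.2% of all genes, and 6.03% in the direction of these 2. Fcgr2b had a difference of -4.10 on the log2 scale (SE 0.56, adjusted p = 9.05e-05) and Fcgr3 one of -2.26 (SE 0.50, adjusted p = 0.0063). Both genes were lower in the LN in DC1 and higher in the LN in DC2. The Ly6C+ monocyte markers, of a cell type in which both genes were high, moved the same way: 4 of 7 were lower and none higher in the LN in DC1, 6 were higher and none lower in DC2, and all 7 were below 0 in this test (median -4.15 against -0.07 over all genes). The 7 DC1 markers were also all lower in this test (median -3.91). Of these, 6 were lower and none higher in the LN in DC1, and 4 were higher and 2 lower in DC2. The part of either list in the result was not tested. For Fcgr4, lower in the LN in both lineages, the difference was -1.72 (95% interval -3.74 to 0.30, adjusted p = 0.281), and for Fcgrt it was -0.66 (95% interval -1.49 to 0.18, adjusted p = 0.327).

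**Figure D2:**
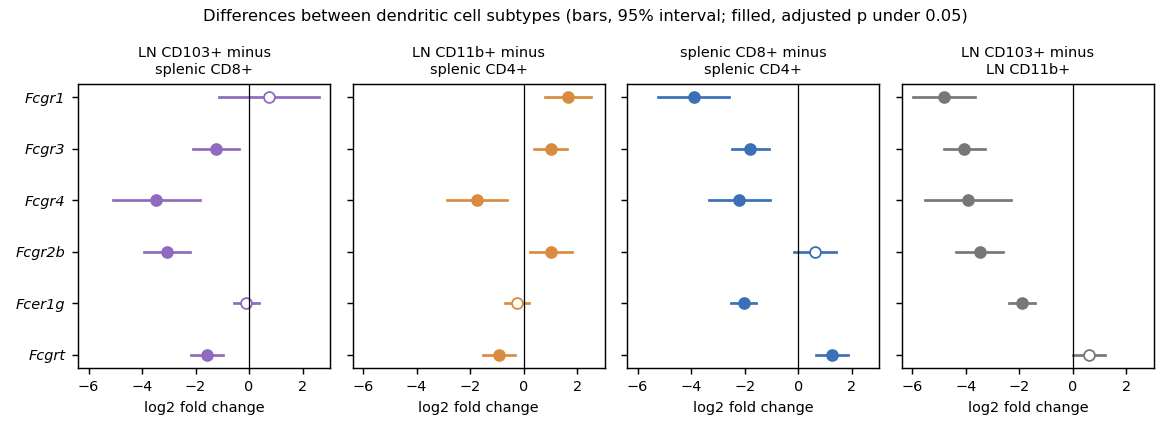
Log2 fold change of each gene in 4 comparisons of DC subtypes, with bars for the 95% interval and filled points for adjusted p under 0.05 (edgeR, 3 libraries a subtype). Fcgr2b and Fcgr3 lie left of 0 for LN CD103+ minus splenic CD8+ DCs and right of 0 for LN CD11b+ minus splenic CD4+ DCs, and all but Fcgrt lie left of 0 for LN CD103+ minus LN CD11b+ DCs.

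Lineages within an organ were compared next. In the LN, 5 of 6 members were lower in CD103+ than in CD11b+ DCs, against 7.73% of all genes called as lower and 12.9% called in all. Fcgr3 fell by 4.05 on the log2 scale (SE 0.37, adjusted p = 6.3e-07), Fcgr4 by 3.93 (SE 0.76, adjusted p = 0.00163), Fcgr2b by 3.47 (SE 0.42, adjusted p = 1.44e-05) and Fcer1g by 1.90 (SE 0.23, adjusted p = 1.36e-05). Fcgrt was at 0.61 (95% interval 0.01 to 1.21, adjusted p = 0.184). In the spleen, 5 of 6 members differed between CD8+ and CD4+ DCs, against 27.4% of all genes (13.1% higher and 14.4% lower). Fcgr1, Fcgr3, Fcgr4 and Fcer1g were lower in CD8+ DCs, Fcer1g by 2.04 (log2 fold change -2.04, SE 0.23, adjusted p = 2.51e-06), whereas Fcgrt was higher by 1.27 (SE 0.28, adjusted p = 0.00236).

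Monocytes were set against the mean of the 4 DC subtypes. Leaving out Fcgr1, 4 of 5 members were higher in monocytes, where 52.9% of all genes were called and 26.4% were higher. Fcgr3 was higher by 5.62 on the log2 scale (SE 0.20, adjusted p = 6.03e-14), Fcer1g by 2.84 (SE 0.15, adjusted p = 1.49e-11), Fcgr4 by 2.77 (SE 0.38, adjusted p = 6.31e-06) and Fcgr2b by 2.71 (SE 0.26, adjusted p = 4.71e-08). Fcgrt was at 0.25 (95% interval -0.21 to 0.70, adjusted p = 0.359). The 7 neutrophil markers summed to 225 to 346 CPM in monocytes and to at most 5.75 CPM in any DC library. In monocytes the sum came from Ngp, Mmp8, Ltf and Camp, with means of 99.3, 96.1, 49.8 and 25.4 CPM. There Ly6g, Retnlg and Cxcr2 averaged 0.219, 0.173 and 0.455 CPM. The part of neutrophils in this comparison was not tested. Pair by pair and again without Fcgr1, all 5 members differed between monocytes and splenic CD8+ DCs (42.1% of all genes), Fcgrt being lower, and between monocytes and LN CD11b+ DCs (47.8% of all genes). Of the same 5, 3 differed from splenic CD4+ DCs (48% of all genes), where Fcgr4 and Fcgrt did not pass, and 4 from LN CD103+ DCs (53.2% of all genes). These comparisons share the monocyte libraries.

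Values per length make the members comparable with each other, so the make-up of the 4 IgG receptors Fcgr1, Fcgr2b, Fcgr3 and Fcgr4 was taken from TPM. Their summed level was 745 to 1044 TPM in monocytes, 103 to 168 in LN CD11b+ DCs, 91.3 to 122.9 in splenic CD4+ DCs, 45.5 to 96.7 in splenic CD8+ DCs and 6.44 to 12.3 in LN CD103+ DCs. Fcgr2b made up 80.4% to 86.4% of it in splenic CD8+ DCs and 26.7% to 32.6% in monocytes, where Fcgr3 made up 47.0% to 52.1%. Fcgr4 was the leading activating message in splenic CD4+ DCs, with 30.3% to 51.5% of the sum, against 3.98% to 7.49% in monocytes and 4.36% to 9.50% in LN CD11b+ DCs. It also led the activating messages in splenic CD8+ DCs, at 8.17% to 12% of the sum against 4.52% to 7.26% for Fcgr3.

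The ratio of the activating messages to Fcgr2b was 2.07 to 2.75 in monocytes and 0.158 to 0.244 in splenic CD8+ DCs, so these ranges did not touch. LN CD11b+ DCs lay between them at 0.545 to 0.860 and LN CD103+ DCs, with few reads, at 0.184 to 0.816. Splenic CD4+ DCs had ratios of 0.943, 1.25 and 3.48. The high value belonged to replicate 3, the library with the least Fcgr2b, and without it the mean of 1.89 became 1.10. Fcer1g exceeded the summed activating receptors in every library, by 5.71 to 7.27 times in monocytes, 14.3 to 29.3 times in the splenic and LN CD11b+ DCs, and 42.3 to 125 times in LN CD103+ DCs. No test was made on these ratios.

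**Figure D3:**
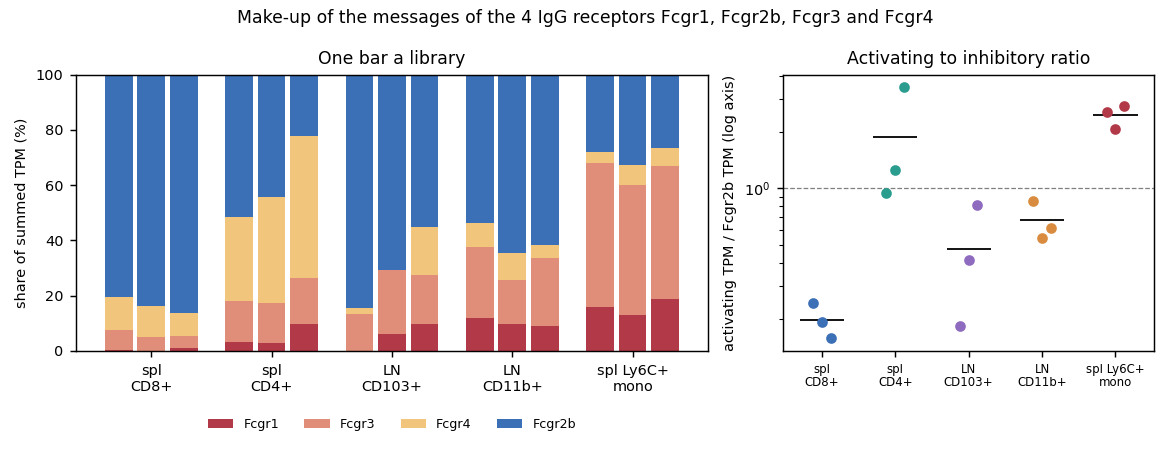
Left, share of Fcgr1, Fcgr3, Fcgr4 and Fcgr2b in their summed TPM (percent), with 1 bar a library. Right, ratio of summed activating to Fcgr2b TPM on a log axis, with 1 point a library, a line at each mean (n = 3) and a dashed line at 1. Fcgr2b fills over 80% of each splenic CD8+ bar and under 33% of each monocyte bar.

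Reads of Fcgr2b and Fcgr3 are partly alike. Their transcripts share an exact run of 129 bases, and 14.6% of the 30-base windows of Fcgr3 and 5.92% of those of Fcgr2b occur in the other gene, where 30 bases was the shortest read kept. The longest run shared by any other pair of members was 14 bases. The authors counted uniquely mapped reads, and a read lying wholly within the shared stretch has no unique place, so the levels of this pair carry that uncertainty. No exon of a member overlapped an exon of another counted gene.

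The bases before the annotated starts of the 3 activating receptor genes are shown because all carry the same 6 letters there. By mean level these genes were highest in monocytes, but so were Fcgr2b and Fcer1g, which lacked the letters over 250 bases. Fcgr4 was not called between monocytes and splenic CD4+ DCs. The windows hold the 80 bases before the RefSeq start (GRCm38.p6), and capitals mark GAGGAA read on either strand, the core of the known binding site of PU.1, the myeloid factor encoded by Spi1. The motif was chosen after the sequences were seen. Fcgr1 is shown at chr3:96293970-96294049, Fcgr3 (the first of 2 RefSeq starts) at chr1:171059404-171059483, both on the minus strand, and Fcgr4 at chr1:171018846-171018925 on the plus strand.
Fcgr1: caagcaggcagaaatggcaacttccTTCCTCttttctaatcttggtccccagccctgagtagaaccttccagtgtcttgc
Fcgr3: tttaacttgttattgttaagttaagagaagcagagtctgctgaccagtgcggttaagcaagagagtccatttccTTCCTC
Fcgr4: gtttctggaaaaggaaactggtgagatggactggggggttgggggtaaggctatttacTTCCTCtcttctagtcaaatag

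The match began 55 bases before the start in Fcgr1, 6 in Fcgr3 and 22 in Fcgr4, always on the reverse strand. Over 250 bases before the start the letters were not found in Fcgr2b, Fcer1g or Fcgrt, and they were found in 23.3% of the 32817 promoter windows of that length in the reference, and in 7.97% of windows cut to 80 bases. Fcgr1 also held TTCNNNGAA, the form of a STAT site, 109 bases before its start, as did 7.01% of all windows. The windows were not alike. Of the 80 bases before the start, 56 lay in annotated exons in Fcgr2b, 29 in Fcgrt, 16 in Fcer1g and 6 in Fcgr4, and 0 in Fcgr1 and Fcgr3. The 80-base windows of Fcgr2b and Fcgr3 also lay within these genes as counted. Whether the starts used here are those in use in these cells was not tested. A match of letters is not evidence of binding.

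**Figure D4:**
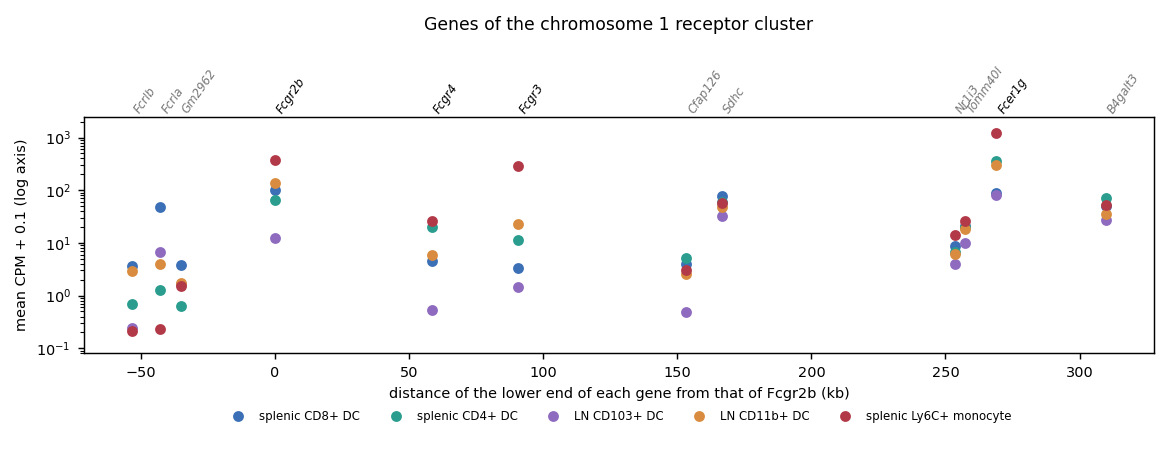
Mean CPM + 0.1 on a log axis of the genes with 100 or more reads around the receptor cluster on chromosome 1, against the distance of each gene's lower end from that of Fcgr2b (kb), with 1 point a subtype (n = 3). Monocytes are highest at the 4 members, whose names are in black, and also at Nr1i3 and Tomm40l, and low at Fcrla. LN CD103+ DCs are lowest at the 4 members, at Fcer1g close to splenic CD8+ DCs. They are also lowest at Cfap126, Sdhc, Nr1i3, Tomm40l and B4galt3.

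The members Fcgr2b, Fcgr4, Fcgr3 and Fcer1g lie within a stretch of chromosome 1, in this order, among genes of unrelated function. Of 8 other genes tested in and beside the stretch, 7 were lower in LN CD103+ than in splenic CD8+ DCs and none higher. Of all genes, 21.8% were lower in this comparison. Whether the falls of Fcgr2b, Fcgr3 and Fcgr4 are linked to those of their neighbours was not tested. Between LN CD11b+ and splenic CD4+ DCs 1 was higher and 1 lower (19.3% and 13.8% of all genes). In monocytes against the mean of the DCs 2 were higher and 2 lower, where 52.9% of all genes were called and 26.4% were higher. Fcrla and Fcrlb, which encode intracellular Fc receptor-like proteins of B cells, are among the 3 nearest genes before Fcgr2b, with Gm2962. Fcrla had 47.7 ± 17.1 CPM (SD, n = 3) in splenic CD8+ DCs and 0.130 CPM in monocytes, a monocyte minus DC difference of -5.07 on the log2 scale (adjusted p = 0.000897). Beyond Fcer1g, B4galt3 was called in both LN minus spleen comparisons, lower by 0.93 in DC1 and by 1.04 in DC2 (log2 fold changes -0.93 and -1.04), and Adamts4 had 12 reads in all.

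The genes that transmit the ITAM signal were largely higher in monocytes. Of the 24 in the list, 18 were higher and 4 lower than in the mean of the DCs, with a median log2 fold change of 1.33 against -0.06 over all genes. Of all genes, 52.9% were called in this comparison and 26.4% were higher. Fgr, a Src family kinase, was higher by 3.07 (SE 0.19, adjusted p = 1.03e-10), and Lcp2, the adapter SLP-76, by 2.43 (SE 0.14, adjusted p = 7.15e-11). Src itself was lower (log2 fold change -5.72, adjusted p = 3.15e-07), at 0.185 CPM in monocytes, and so was the adapter Blnk (-3.49, adjusted p = 2.17e-06). In the inhibitory arm of 12 genes, 9 were higher and 1 lower in monocytes than in the mean of the DCs, with a median of 0.85. Against splenic CD4+ DCs alone, 3 of these 12 were higher and 2 lower in monocytes (median 0.204). Of the 24 ITAM genes, 13 were higher and 6 lower against splenic CD4+ DCs (median 0.569), where 48% of all genes were called. The adapter Dok3 stood out at 367 CPM in monocytes and 1.31 to 14.3 CPM on average in the DC subtypes, a difference of 6.06 (SE 0.34, adjusted p = 2.51e-11).

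Between LN and spleen, both arms held genes moving each way. Of the 24 ITAM genes, 7 were higher and 11 lower in LN CD103+ than in splenic CD8+ DCs (median -0.26 against 0.01 over all genes), and 4 were higher and 11 lower in LN CD11b+ than in splenic CD4+ DCs (median -0.51 against 0.05). Of all genes, 21.8% were lower in the first comparison and 13.8% in the second. Src rose in both comparisons, by 5.18 in DC1 and 3.84 in DC2, and so did Lat, an adapter of T cells and mast cells, by 4.16 and 3.38. The phosphoinositide kinase subunit gene Pik3cd fell in both (log2 fold changes -2.33 and -2.10). In the inhibitory arm of 12 genes, 4 rose and 6 fell in DC1 (median -0.525), and 3 rose and 7 fell in DC2 (median -1), where 45.6% and 33.1% of all genes were called. Cblb, a ubiquitin ligase that restrains signalling, rose by 3.50 and 2.62, and Ptpn22, a tyrosine phosphatase, fell (log2 fold changes -2.20 and -2.68). T cell markers, which include Cd3e and Lck, summed to 56.9 to 114 CPM in LN DCs and to 3.51 to 17.01 in splenic DCs, and their part in the Lat result was not tested.

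**Figure D5:**
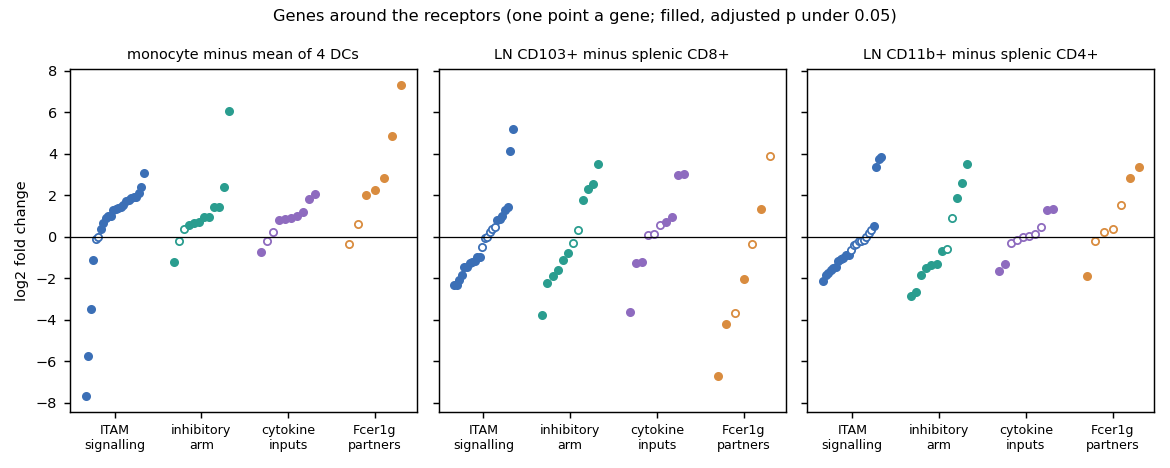
Log2 fold change of genes around the receptors in 3 comparisons, with 1 point a tested gene, ordered within its list, and filled points for adjusted p under 0.05 (edgeR). In the monocyte comparison 18 of 24 ITAM genes and 9 of 12 inhibitory genes are filled and above 0, against 26.4% of all genes. Both LN minus spleen panels hold filled points on either side.

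Receptors other than those for IgG also depend on the Fcer1g chain. Of 9 in the list, 7 passed the filter and 5 were higher in monocytes than in the mean of the DCs, none lower, with a median of 2.25. In this comparison 26.4% of all genes were higher. Clec4e, the receptor Mincle for mycobacterial glycolipid, was at 117 CPM in monocytes, and differed by 7.33 (SE 0.46, adjusted p = 1.33e-10). Against splenic CD4+ DCs alone, 3 of the 7 receptors were higher and 1 lower in monocytes (median -0.108), where 48% of all genes were called. Between the LN subtypes, 5 of the 7 were lower in CD103+ DCs, against 7.73% of all genes. Among them was Clec4n, the receptor Dectin-2, with 1.55 against 40.1 CPM (log2 fold change -4.67, SE 0.44, adjusted p = 8.59e-07). Among 12 other Fc receptors and Fc receptor-like genes, 8 passed the filter. Of these 5 were lower in monocytes and none higher, where 52.9% of all genes were called. Fcer1a and Ms4a2, the IgE receptor subunits of mast cells and basophils, had at most 0.0942 CPM on average in any subtype. These were named after their values were seen.

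Of 10 genes for cytokine inputs known to regulate Fc receptors, 7 were higher and 1 lower in monocytes (median 0.88 against -0.06 over all genes, of which 26.4% were higher). Ifngr1, a chain of the interferon gamma receptor, was higher by 2.07 (SE 0.13, adjusted p = 1.49e-10) and Spi1, which encodes PU.1, by 1.19 (SE 0.13, adjusted p = 5.38e-07). Within DC1, Ifngr1 fell from 623 CPM in the spleen to 51.5 CPM in the LN (log2 fold change -3.60, SE 0.21, adjusted p = 2.82e-10). There Il4ra, a chain of the interleukin 4 receptor, rose by 2.99 (SE 0.28, adjusted p = 6.35e-08) and Irf1, an interferon-induced transcription factor, by 3.01 (SE 0.24, adjusted p = 1.1e-08). Each moved the same way in DC2. Ifngr1 was lower in the LN (log2 fold change -1.62, adjusted p = 2.61e-06), Il4ra higher by 1.32 (adjusted p = 0.000649) and Irf1 by 1.37 (adjusted p = 0.000128).

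Genes with the most similar pattern were sought by Pearson correlation of log2 CPM over the 15 libraries among 10246 genes, and the values mostly restate the differences between subtypes. Fcgr3 was most like Cd14, the endotoxin co-receptor (r = 0.99), Tlr8, a receptor for single-stranded RNA (r = 0.98), and Emilin2 (r = 0.98). Fcgr1 was most like Pde7b (r = 0.97), Lyz2, which encodes lysozyme (r = 0.96), and Arhgef10l (r = 0.96). Fcer1g was most like Gapt, Gngt2 and Csf3r, the receptor for granulocyte colony-stimulating factor (each r = 0.98). Fcgr2b was most like Dpep2, Ckap4 and Rreb1 (each r = 0.93), and Fcgr4 like Neurl2 (r = 0.95) and Ifitm6 (r = 0.94), the third gene having no symbol in the reference. Fcgrt was most like Atg3, an enzyme of autophagy (r = 0.95), Ranbp1 and Ptpn11, the phosphatase SHP-2 (each r = 0.94). Between the members, r was 0.97 for Fcgr3 and Fcer1g and -0.13 for Fcgr3 and Fcgrt.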

How the data were processed

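The authors sequenced RNA on Ion Torrent instruments, discarded reads under 30 bases, aligned with STAR 2.4.0j to mm10 and counted with Subread 1.5.2 featureCounts on Ensembl 75, without strand. Library preparation for the mouse cells is not given in the sources used here. The deposited counts are uniquely mapped reads per gene, with the runs of each monocyte library summed. The deposited TPM values, made by the authors, scale counts by exon length to the same sum in each library. Symbols came from GENCODE release 21 for 37607 of 38924 genes.

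Counts of all 15 libraries entered 1 edgeR 4.0.16 fit (R 4.3.3, quasi-likelihood, TMM, genes above 1 CPM in at least 3 libraries), with Benjamini-Hochberg adjustment over 14456 genes and a threshold of 0.05. SEs are the fold change over the root of F, and log2 CPM used a prior count of 2. DESeq2 1.42.0 and limma 3.58.1 were alternatives. Libraries are pools, so p-values measure the spread between pools. Same-numbered libraries deviated together, with every correlation over 0.1, in 4 of 10 pairs of subtypes (splenic CD8+ and CD4+, the LN pair, and splenic CD4+ with each LN subtype). The members and lists were chosen with earlier results of these data known. Named genes were all members, at most 4 called genes a list with the largest change and 10 CPM or more, the 3 genes most like each member, and the 3 neighbours on each side of the cluster, of which 1 is not reported here.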

Additional observations from a re-analysis of the deposited data

Results flagged for a closer look

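The LN minus spleen change differed between the DC lineages for 2 members by the test of the difference itself. For Fcgr2b it was -4.10 on the log2 scale, made of -3.07 in DC1 and 1.03 in DC2. For Fcgr3 it was -2.26, made of -1.24 in DC1 and 1.02 in DC2. All 3 LN CD103+ libraries lay below all splenic CD8+ libraries in Fcgr2b, at 7.96 to 17.4 against 63.1 to 124 CPM, and all 3 LN CD11b+ libraries lay above all splenic CD4+ libraries, at 96.1 to 165 against 28.8 to 94.6 CPM. The Ly6C+ monocyte markers showed the same difference, 7 of 7 lower with a median of -4.15. So did the DC1 markers, 7 of 7 lower with a median of -3.91. The part of either list in these results was not tested. The calls for Fcgr2b and Fcgr3 both held without each library in turn.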

How the results depend on the processing

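All member fold changes kept their direction and their side of the threshold under DESeq2, RLE size factors, either monocyte sequencing run alone and the replicate block, 72 of 72 each. These include Fcgr1 between monocytes and DCs, which the gate partly set. The replicate block, which pairs libraries by number, kept the count of members called at 5 between LN CD11b+ and splenic CD4+ DCs and changed no other call. That count was the least stable: it fell to 3 in a fit of these subtypes only and to 1 with limma on log2(TPM + 0.1), and ran from 2 to 5 with each library left out. Under limma on log2(TPM + 0.1), Fcgr4 between splenic CD8+ and CD4+ DCs (adjusted p = 0.0535) and Fcgrt between monocytes and splenic CD8+ DCs (0.053) also missed the threshold. Fcgr2b between the splenic DCs passed without the filter on low counts (0.0421), Fcgr2b between LN CD11b+ and splenic CD4+ DCs was lost without TMM (0.0554), and Fcgr3 between LN CD103+ and splenic CD8+ DCs was lost in a fit of these subtypes only (0.0871), while Fcgrt between monocytes and LN CD103+ DCs was gained in such a fit (0.00609). The causes were not tested. Without TMM the median fold change of all genes moved by up to -0.211 on the log2 scale (LN CD103+ against splenic CD8+ DCs).

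Leaving out 1 library gave 3 to 4 members called between LN CD103+ and splenic CD8+ DCs, 5 to 6 between monocytes and LN CD103+ DCs and between LN CD103+ and splenic CD4+ DCs, and, beside the 2 to 5 given above, no change in the other counts. Here the counts are over all 6 members, so those with monocytes include Fcgr1, which the counts given earlier left out. No called member changed direction. Among differences that were not called, the range over libraries left out included both signs for Fcgr1 between LN CD103+ and splenic CD8+ DCs (log2 fold change -0.341 to 1.328, lowest without LN CD103+ replicate 3), Fcer1g there (-0.322 to 0.173, highest without splenic CD8+ replicate 1), Fcgr4 (-0.07 to 0.655, lowest without monocyte replicate 2) and Fcgrt (-0.058 to 0.554, lowest without splenic CD4+ replicate 2) between monocytes and splenic CD4+ DCs, and Fcer1g in the difference between lineages (-0.068 to 0.427, lowest without splenic CD8+ replicate 3).

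The ratio of activating to inhibitory message was lower from counts than from TPM, since Fcgr2b has the longest summed exons of the 4 receptors (3849 bases): 0.0750 for 0.198 in splenic CD8+ DCs, 0.327 for 0.674 in LN CD11b+ DCs and 1.21 for 2.46 in monocytes. With each library left out the mean ratio from TPM ran from 0.175 to 0.219 in splenic CD8+ DCs, 1.10 to 2.37 in splenic CD4+ DCs, 0.299 to 0.615 in LN CD103+ DCs, 0.581 to 0.738 in LN CD11b+ DCs and 2.32 to 2.66 in monocytes. Depth limits Fcgr1 and Fcgr4 in DC1 subtypes, where single libraries held 0 to 8 reads of Fcgr1, and 0 to 7 reads of Fcgr4 in LN CD103+ DCs.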
